A study of Homo sapiens with 15 samples.

Results

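The 10 genes CCR7, LAMP3, CD83, CCL19, CCL22, CD80, CD86, ICOSLG, CD274 and PDCD1LG2, which carry out the maturation and co-stimulation programme best known from dendritic cells, were followed in THP-1 cells that had received bacterial extracellular vesicles (BEVs). They were taken by symbol from a count table of 60286 genes. The set was chosen with earlier results of these data known, so its counts of called genes describe this set only. Dendritic cells that sense microbial products mature: they bring the chemokine receptor CCR7 and the surface protein CD83 to their membrane, migrate along CCL19 towards lymph nodes, and raise B7 family ligands that T cells read. CD80 and CD86 bind the activating receptor CD28 and the inhibitory receptor CTLA4, ICOSLG binds ICOS, and CD274 (PD-L1) and PDCD1LG2 (PD-L2) bind the inhibitory receptor PD-1. Monocytes and macrophages can use many of the same genes after they meet bacterial products.

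THP-1 is a line derived from a human monocytic leukaemia. The labels give the cells as wild type, and all libraries come from that 1 line. Cells of the NC group received PBS. BEVs of *E. coli* were given at 1 μg/mL after isolation by ultracentrifugation (EUC) or by precipitation with ε-poly-L-lysine (EPL), and BEVs of *S. aureus* at 10 μg/mL after isolation by ultracentrifugation (SUC) or by the same precipitation (SPL). Each group had 3 libraries, 15 in all. Species and dose changed together and cannot be told apart. The study's methods give 6 h of incubation, while the labels give day 0. The labels do not say that the libraries of a group came from separate cultures, so the p-values measure the spread between these samples. All comparisons with NC share the same 3 NC libraries.

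The libraries held 14399421 to 16637345 counted reads, and 17198 genes had enough counts to be tested. All 10 members were tested. CD83, ICOSLG and CCL22 reached the filter's level of 0.632 CPM in all 3 NC libraries, as did 85.6% of the tested genes. CPM is a count scaled to the library size. The filter used the unnormalised total, and all other CPM values use the normalised size. The other 7 members passed through the BEV groups. The cells carried the markers of their labelled lineage, and all 9 monocyte markers were tested. Their summed level was 1075 to 1094 CPM in NC and 1683 to 2223 CPM in the BEV groups. SPI1 made up much of that rise, from a mean of 471 CPM in NC to 960 to 1198 CPM with BEVs. CD14, CSF1R, CD36 and TLR4 also had higher means in all 4 groups. CD33 fell from 82.8 CPM to between 50.1 and 64.8 CPM. LYZ and ITGAM had lower means than NC in all 4 groups, and FCGR1A in all but SUC. Of 12 markers of dendritic cell identity 6 were tested, with a summed level of 104 to 106 CPM in NC and 121 to 200 CPM in the BEV groups. CD1C and CLEC10A were called higher in all 4 BEV groups, and CD209 and ZBTB46 in all but SUC, where their log2 changes were 0.95 and 0.97. FLT3 was lower in every BEV library than in NC, with log2 changes of -0.92 in EUC and -0.80 in EPL, and -0.60 in both *S. aureus* groups (adjusted p at most 4.52e-05), under the size required for a call. BATF3 was not called, at 0.023 to 0.38. CLEC4C had no count in any library, and CD1A, CD1B, CLEC9A, XCR1 and FCER1A had too few counts to be tested. Markers of other cell types were low, and some were higher with BEVs. The summed level of 7 T cell markers was 1.37 to 2.06 CPM in NC and 1.98 to 4.14 CPM in the BEV groups. That of 6 B cell markers was 9.47 to 11.1 CPM in NC and 12.2 to 27.1 CPM with BEVs, and that of 8 markers of epithelial cells and fibroblasts 2.69 to 4.94 and 3.50 to 8.99 CPM. PAX5 (log2 change 1.26 to 1.75), COL1A1 (1.31 to 2.58) and DCN, which had 1 count in NC, were called higher in all 4 groups, and TRAC in EUC and SUC. CD3D, CD3G, CR2 and KRT19 were at 0 in all libraries. The part of these markers in the members' changes was not tested. In bulk RNA, more cells of a kind and more RNA per cell cannot be told apart.

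In BEV-stimulated cells most of the programme rose, and CD86 passed the test in no group. CCR7, LAMP3, CD80, CD83, CD274, ICOSLG and CCL19 were higher than in NC in all 4 BEV groups. CCL22 was called only in EUC and PDCD1LG2 only in EPL and SUC. A gene was called when its adjusted p was no higher than 0.01 and its log2 change was 1 or more in size, with edgeR's quasi-likelihood test and Benjamini-Hochberg adjustment over all tested genes. By this rule 8 of 10 members were higher in EUC, where 9.43% of all tested genes were called higher and 5.75% lower. The members called higher numbered 8 in EPL (background 9.38% higher, 5.15% lower), 8 in SUC (6.82% higher, 3.06% lower) and 7 in SPL (7.76% higher, 3.70% lower). The filter was passed only through the BEV groups by 7 of the 10 members, whereas 85.6% of the tested genes reached it in NC. For those 7 a higher level with BEVs was partly set in advance, so the shares are not a like background. Of the 3 that reached it in NC, CD83 and ICOSLG were called in all 4 BEV groups and CCL22 in EUC. The same limit applies to the library counts and medians that follow. No member was called lower in any group. The single estimate below 0 was that of CD86 in SPL, at -0.10 (adjusted p = 0.905, unadjusted 95% interval -1.21 to 1.00).

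The 3 libraries of the BEV group lay above the 3 NC libraries for all 10 members in EUC and for 9 in EPL, and for 8 each in SUC and SPL. The background of genes whose libraries lay apart in this direction was 25.9% in EUC and 26.2% in EPL, and 24.2% in SUC and 26.9% in SPL. CD86 overlapped NC in EPL, SUC and SPL, and CCL22 overlapped it in SUC and SPL. The median log2 change of the members was 4.27 in EUC and 3.96 in EPL, and 3.52 in SUC and 3.62 in SPL, against 0.00083, -0.00081, 0.0067 and -0.0065 over all tested genes. CCR7 had no count in NC, so its fitted change has no lower reference. With CCR7 set to its lower bound, the medians were 4.24, 3.96, 3.18 and 3.05.

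**Figure D1:**
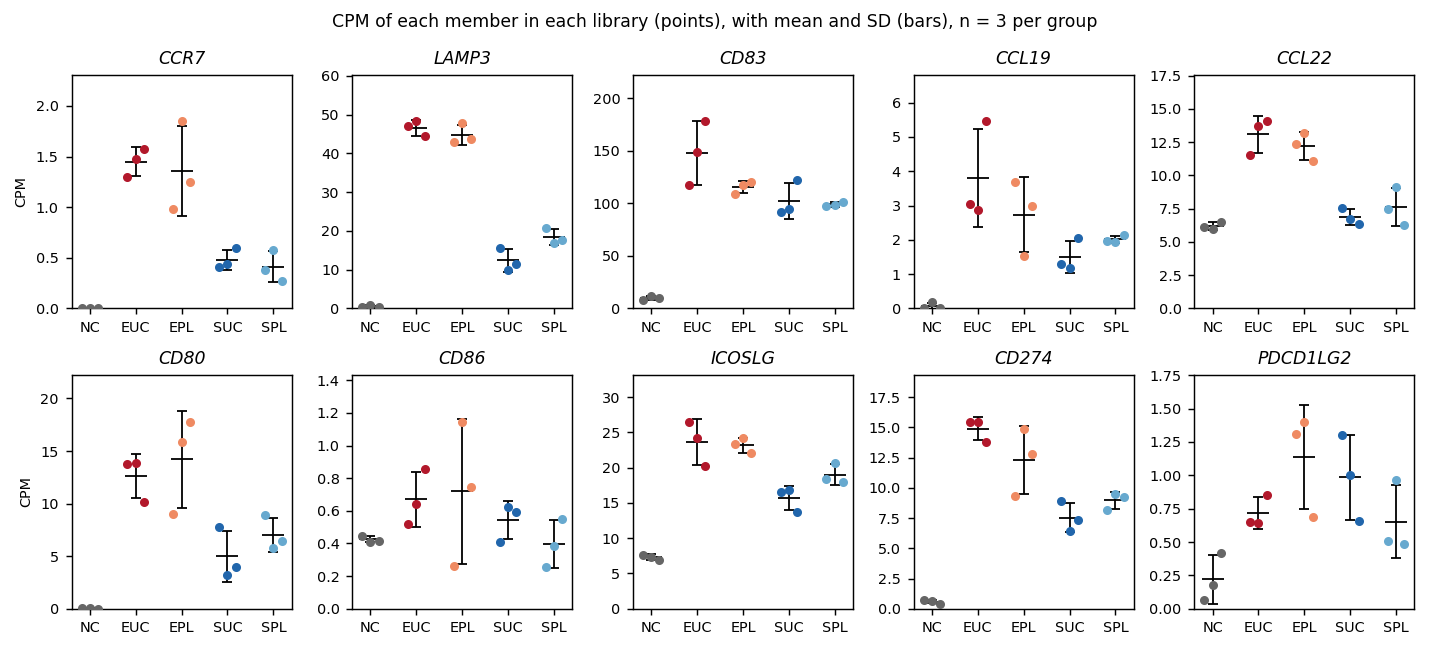
Each panel plots the level of 1 member in CPM (vertical axis, starting at 0, with a scale of its own) in the 5 groups, with 1 point per library and the mean and SD as bars (n = 3). LAMP3 lay between 42.9 and 48.2 CPM in the *E. coli* groups and between 9.93 and 20.7 CPM in the *S. aureus* groups, above the 0.417 to 0.823 CPM of NC, while CD86 stayed between 0.256 and 1.15 CPM in all groups.

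To place these genes on their regulatory sequence, the bases before the annotated start were read from RefSeq promoter windows on GRCh38.p14, cut where an exon is annotated. A window was found for 7 of the 10 members, and for CCR7, LAMP3 and PDCD1LG2 none was printed. The windows were searched on both strands for the NF-kappa B motif by its 10-letter consensus, for the interferon-stimulated response element GAAANNGAAA (ISRE), for the gamma-activated site TTCNNNGAA (GAS) and for the AP-1 motif TGANTCA. Of 35116 promoter windows of 250 bases, 9.96% held the NF-kappa B motif, 3.02% the ISRE, 6.57% the GAS and 6.57% the AP-1 motif. The windows below are shown because they held a match, with the matched letters in capitals. The 6 matches of CD83 at its second annotated start (chr6:14117522-14117771, plus strand) were all to the NF-kappa B motif and overlapped within 3 stretches. The CCL22 window (chr16:57358533-57358782, plus strand) held 2 overlapping matches to it. So did the window at the second annotated start of CD86 (chr3:122077534-122077783, plus strand), a member that was not called. The CD274 window (chr9:5450292-5450502, plus strand) held 2 overlapping ISRE matches, read on the minus strand, and 1 GAS match.
CD83: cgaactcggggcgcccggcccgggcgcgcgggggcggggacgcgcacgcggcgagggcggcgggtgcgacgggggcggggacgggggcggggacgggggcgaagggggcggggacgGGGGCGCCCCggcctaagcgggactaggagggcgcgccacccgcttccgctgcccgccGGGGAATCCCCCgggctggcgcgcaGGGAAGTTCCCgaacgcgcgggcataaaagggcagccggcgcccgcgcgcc
CCL22: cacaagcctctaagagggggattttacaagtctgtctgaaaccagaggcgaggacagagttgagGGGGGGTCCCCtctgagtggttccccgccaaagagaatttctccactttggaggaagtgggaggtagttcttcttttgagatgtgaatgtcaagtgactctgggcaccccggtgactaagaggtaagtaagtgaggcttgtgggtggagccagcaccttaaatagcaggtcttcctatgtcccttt
CD86: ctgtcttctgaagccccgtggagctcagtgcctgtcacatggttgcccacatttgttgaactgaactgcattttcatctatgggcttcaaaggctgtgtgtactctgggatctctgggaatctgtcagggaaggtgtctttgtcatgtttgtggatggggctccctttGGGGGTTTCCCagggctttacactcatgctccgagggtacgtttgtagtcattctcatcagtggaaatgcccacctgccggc
CD274: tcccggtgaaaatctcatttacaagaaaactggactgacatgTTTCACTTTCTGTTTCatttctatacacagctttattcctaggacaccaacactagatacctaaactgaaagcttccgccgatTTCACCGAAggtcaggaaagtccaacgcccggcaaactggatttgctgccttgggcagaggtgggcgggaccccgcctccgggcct
The first windows of CD83 and CD86 and the windows of CD80 and CCL19 held none of these letters, and the ICOSLG window lay within an annotated exon. A match describes the letters only, and a window without one says nothing about a factor.

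Among the genes of the maturing cell itself, LAMP3, a lysosome-associated membrane protein used as a marker of mature dendritic cells, rose most among the members with counts above 3 in NC. Its gene lies on chromosome 3 (183122215 to 183163839, minus strand). The NC libraries held 0.448, 0.823 and 0.417 CPM. The EUC libraries held 47.0, 48.2 and 44.4 CPM and the EPL libraries 42.9, 47.8 and 43.6 CPM. All 6 *E. coli* libraries stood within a narrow band, far above the rest. The SUC libraries held 15.6, 9.93 and 11.6 CPM and the SPL libraries 20.7, 16.9 and 17.6 CPM, so the *S. aureus* groups lay between NC and the *E. coli* groups without overlap. The log2 change was 6.34 ± 0.22 (SE) in EUC (adjusted p = 2.35e-13) and 6.29 ± 0.22 in EPL (adjusted p = 2.83e-13). In SUC it was 4.43 ± 0.23 (adjusted p = 1.18e-10), and in SPL 5.00 ± 0.23 (adjusted p = 1.33e-11).

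CD83, an immunoglobulin superfamily protein and classical maturation marker, had the highest level per transcript length of the members. It lies on chromosome 6 (14117256 to 14136918, plus strand). NC libraries held 8.0, 12.2 and 9.48 CPM. The EUC libraries, at 117, 149 and 178 CPM, were the most scattered, while EPL stood at 109, 117 and 120 CPM. SUC libraries held 91.3, 94.2 and 122 CPM and SPL libraries 97.2, 98.5 and 102 CPM. EUC overlapped EPL and SUC, the SPL libraries lay below those of EUC and EPL, and all 4 BEV groups lay far above NC. Log2 changes were 3.90 in EUC and 3.54 in EPL, and 3.37 in SUC and 3.32 in SPL, with adjusted p between 6.56e-12 and 6.33e-11.

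CCR7, the receptor for CCL19 and CCL21 on chromosome 17 (40553769 to 40565472, minus strand), was not detected in NC, with 0 counts in all 3 libraries. Counts were 20, 23 and 24 in EUC and 15, 29 and 20 in EPL. They were 6, 7 and 9 in SUC and 6, 9 and 4 in SPL, so all *E. coli* libraries lay above all *S. aureus* libraries at this low level. Against a floor of 3 counts over the 3 NC libraries, CCR7 was at least 23.9-fold higher in EUC and 22.4-fold in EPL, and 7.91-fold in SUC and 6.85-fold in SPL. These floors, and the counting intervals given for the next genes, cover counting error only. All were called, with adjusted p of 1.27e-06 in EUC and 1.73e-06 in EPL, and 0.000157 in SUC and 0.000249 in SPL.

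Of the chemokines, CCL19 rose in all 4 BEV groups and CCL22 in EUC. CCL19, the CCR7 ligand (chromosome 9, 34689570 to 34691276, minus strand), had 0, 3 and 0 counts in NC. It had 47, 45 and 83 counts in EUC and 56, 24 and 48 in EPL, and 19, 19 and 31 in SUC and 31, 30 and 31 in SPL. Every BEV library was above every NC library. The ratio of normalised counts to NC was 62.4 in EUC (95% exact binomial interval 21.0 to 305) and 44.9 in EPL (15.0 to 221), and 24.8 in SUC (8.14 to 123) and 33.2 in SPL (11 to 164). All 4 groups were called, with adjusted p from 8.90e-07 in EUC to 0.000101 in SUC. The 3 counts of NC all came from replicate 2. Without that library the fitted log2 change in EUC went from 5.79 to 8.88, and those of the other groups to between 7.56 and 8.40, values that have no lower reference because NC then held no count. Against a floor of 3 counts over the 2 NC libraries left, CCL19 was at least 40.9-fold higher in EUC and 29.4-fold in EPL, and 16.3-fold in SUC and 21.7-fold in SPL, and it was called in all 4 (adjusted p 3.88e-06 to 0.000132).

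CCL22, which attracts T cells through CCR4 (chromosome 16, 57358783 to 57366189, plus strand), was expressed in NC at 6.14, 5.94 and 6.5 CPM. EUC libraries held 11.5, 13.7 and 14.1 CPM and EPL libraries 12.3, 13.2 and 11.1 CPM. SUC libraries, at 7.51, 6.75 and 6.34 CPM, and SPL libraries, at 7.47, 9.15 and 6.27 CPM, reached into the range of NC. The log2 change was 1.08 ± 0.14 in EUC (adjusted p = 8.59e-06) and 0.98 ± 0.14 in EPL (adjusted p = 2.80e-05), the latter just under the size required for a call. Without NC replicate 3 or EPL replicate 3 the EPL change was 1.02 or 1.04 and was called. Under upper-quartile normalisation the EUC value was also just under it, at 0.98. In SUC the change was 0.15 (95% interval -0.17 to 0.46, adjusted p = 0.498) and in SPL 0.30 (-0.0088 to 0.61, adjusted p = 0.129).

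Of the ligands of CD28 and CTLA4, CD80 rose in all 4 BEV groups and CD86 passed the test in none. CD80 (chromosome 3, 119524293 to 119559614, minus strand) had 1, 1 and 0 counts in NC. It had 212, 216 and 155 counts in EUC and 137, 249 and 285 in EPL, and 114, 52 and 60 in SUC and 139, 89 and 94 in SPL. The normalised ratio to NC was 312 in EUC (95% exact binomial interval 85.9 to 2580) and 353 in EPL (97.3 to 2921), and 122 in SUC (33.4 to 1013) and 174 in SPL (47.8 to 1444). The widths follow from the 2 counts of NC. All 4 groups were called, at an adjusted p of 9.85e-09 in EUC and 6.44e-09 in EPL, and 8.83e-07 in SUC and 1.52e-07 in SPL. CD80 shares 798 exonic bases with TIMMDC1 on the opposite strand, and the strand setting of the count is not given. TIMMDC1 stood at 73.7 ± 3.22 CPM (SD, n = 3) in NC and at group means of 84.6 to 96.6 CPM with BEVs, and was not called.

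CD86 (chromosome 3, 122055362 to 122121139, plus strand) had 7 counts in each NC library. The BEV libraries ranged from 8 to 13 counts in EUC and 4 to 18 in EPL, and 6 to 10 in SUC and 4 to 8 in SPL, and only EUC stood clear of NC. The estimates were 0.65 (95% interval -0.37 to 1.67) in EUC, 0.75 (-0.26 to 1.76) in EPL and 0.35 (-0.70 to 1.40) in SUC, with adjusted p of 0.308, 0.234 and 0.645. These intervals held both 0 and a rise of 2-fold, so neither was excluded.

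Within a library, the ratio of CD80 to CD86 counts needs no library size. Pooled over each group, the ratio was 0.0952 in NC, 18.8 in EUC and 19.7 in EPL, and 9.04 in SUC and 17.9 in SPL. With 0.5 added to each count, the mean log2 ratio was 6.77 higher in the 12 BEV libraries than in the 3 NC libraries (exact permutation test, two-sided, p = 0.0044, the smallest this design can give, and 0.0176 after Benjamini-Hochberg adjustment over 4 ratio tests). The 12 BEV libraries span 4 treatments and are not replicates of 1 condition. The pair belongs to a set chosen with earlier results of these data known, so this p-value is not independent of that choice. With 1, 1 and 0 counts of CD80 in NC, the size of the difference leans on the 0.5 added. Every BEV library had more CD80 than CD86 counts and every NC library fewer. With 1 NC library left out the difference was 6.25 to 7.04, and p was 0.0220 in each case, the smallest an exact permutation test of 12 against 2 libraries can give. The *E. coli* and *S. aureus* libraries differed by 0.73 (exact permutation test, two-sided, p = 0.139, adjusted 0.180), and by 1.01 without SPL replicate 1 (adjusted p = 0.0462 by the exact test).

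ICOSLG, the ligand of the T cell receptor ICOS (chromosome 21, 44215382 to 44241446, minus strand), rose from a level already present. NC libraries held 7.68, 7.35 and 6.86 CPM. EUC libraries held 26.5, 24.2 and 20.2 CPM, EPL libraries 23.3, 24.2 and 22.0 CPM. The SUC libraries, at 16.6, 16.8 and 13.7 CPM, were the lowest of the BEV groups, and SPL stood at 18.3, 20.7 and 18.0 CPM. Log2 changes were 1.70 in EUC and 1.67 in EPL, and 1.10 in SUC and 1.38 in SPL, with adjusted p from 5.44e-09 to 2.37e-06. The annotation holds an artifactual duplicate of this gene (ENSG00000277117, chromosome 21, 5022531 to 5036771, plus strand), whose reads were counted separately, at a mean of 5.16 CPM in NC and 7.66 to 10.9 CPM in the BEV groups. With both summed, the changes were 1.45, 1.45, 0.91 and 1.20, and SUC was no longer called (adjusted p = 4.39e-05).

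The PD-1 ligands are neighbours on chromosome 9, with PDCD1LG2 starting 39964 bases after the end of CD274. CD274 (5450503 to 5470566, plus strand) held 0.704, 0.647 and 0.417 CPM in NC. It held 15.5, 15.4 and 13.8 CPM in EUC and 9.32, 14.8 and 12.8 CPM in EPL. SUC libraries held 8.88, 6.44 and 7.33 CPM and SPL libraries 8.18, 9.53 and 9.24 CPM, so the lowest EPL library fell inside the range of SPL. The log2 change was 4.65 ± 0.23 in EUC and 4.37 ± 0.24 in EPL, and 3.66 ± 0.25 in SUC and 3.92 ± 0.24 in SPL, all called (adjusted p between 4.18e-11 and 3.21e-09).

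PDCD1LG2 (5510531 to 5571282, plus strand) stayed near the limit of the counts. NC libraries had 1, 3 and 7 counts, EUC 10, 10 and 13, EPL 20, 22 and 11, SUC 19, 16 and 10, and SPL 8, 15 and 7. The highest NC library carried most of the counts of its group and equalled the lowest SPL library in counts. The log2 change was 2.31 in EPL (adjusted p = 0.00189) and 2.11 in SUC (adjusted p = 0.00564). It was 1.65 in EUC (95% interval 0.48 to 2.83, adjusted p = 0.0243) and 1.53 in SPL (0.34 to 2.72, adjusted p = 0.0455), which were not called. Single libraries decided these calls. Without NC replicate 1 the EPL change was 1.90 (adjusted p = 0.0117) and the SUC change 1.71 (0.0302), and without NC replicate 2 they were 2.17 (0.0115) and 1.97 (0.0274). The EPL call was also lost without EPL replicate 2 (2.13, adjusted p = 0.0101), and the SUC call without SUC replicate 1 (1.88, 0.0264) or 2 (2.11, 0.0157). Without NC replicate 3 the EUC change was 2.47 and was called (adjusted p = 0.00759), and those in EPL, SUC and SPL were 3.13, 2.94 and 2.36.

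The pooled ratio of CD274 to PDCD1LG2 counts was 2.64 in NC, 20.9 in EUC and 10.9 in EPL, and 7.64 in SUC and 13.7 in SPL. The mean log2 ratio was 2.07 higher in the 12 BEV libraries, which span 4 treatments, than in NC (exact permutation test, two-sided, p = 0.0176, adjusted 0.0352 over the 4 ratio tests). This pair also belongs to the set chosen with earlier results known, so its p-value is not independent of that choice. The NC libraries spread from 0 to 2.94 on this scale, and the highest of them lay within the BEV range. Without NC replicate 2 or 3 the difference was 2.15 or 1.29, each with an adjusted p of 0.176 by the exact test. Between *E. coli* and *S. aureus* libraries the difference was 0.53 (exact permutation test, two-sided, p = 0.180, adjusted 0.180).

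**Figure D2:**
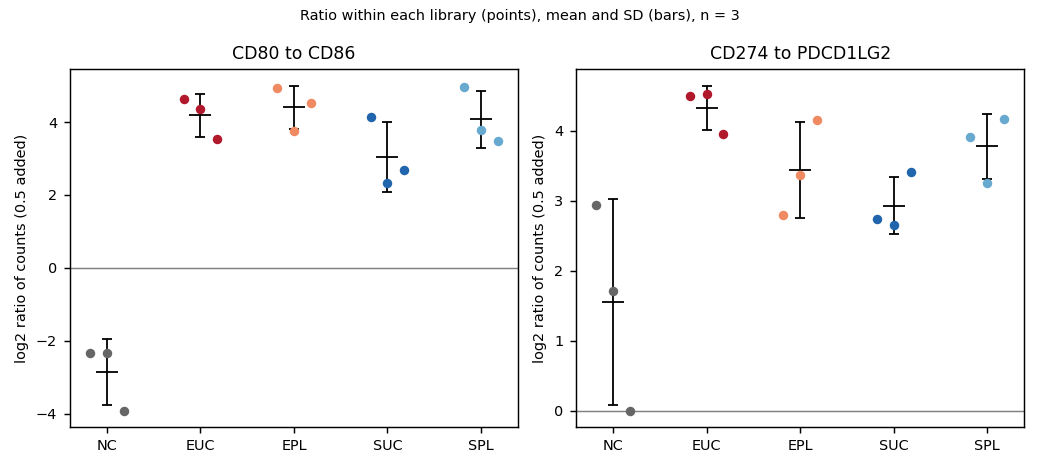
The vertical axis gives the log2 ratio of counts within each library (0.5 added to each count) of CD80 to CD86 (left) and of CD274 to PDCD1LG2 (right), with 1 point per library and the mean and SD as bars (n = 3) for the 5 groups on the horizontal axis. The CD80 to CD86 ratio was at or below -2.32 in NC and at or above 2.32 in every BEV library, whereas the CD274 to PDCD1LG2 ratio in NC ran from 0 to 2.94 and met the BEV libraries.

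**Figure D3:**
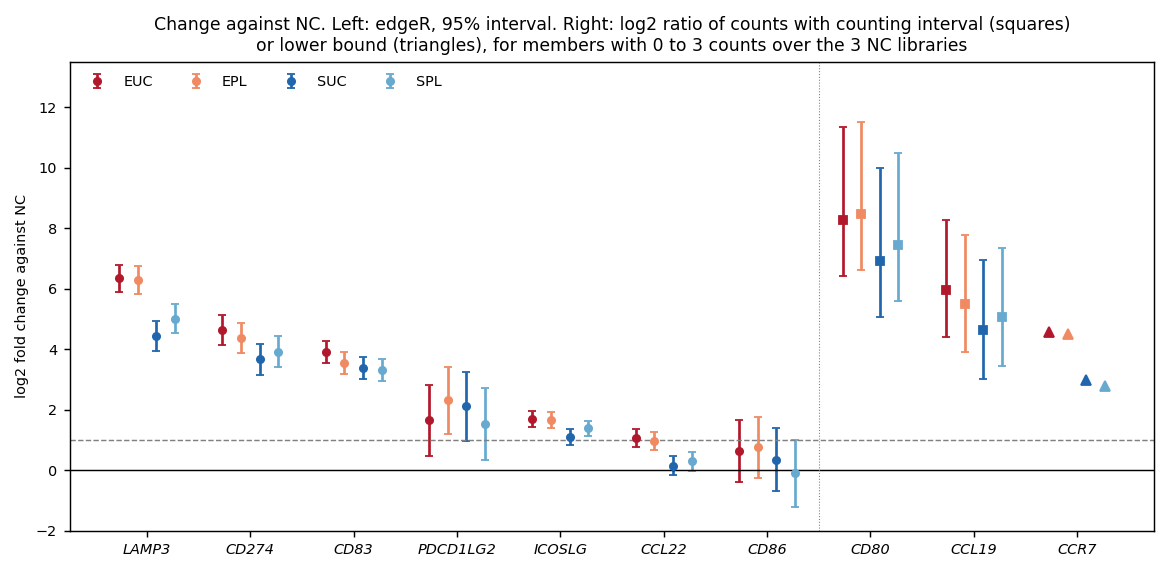
The vertical axis gives the log2 fold change against NC for each member on the horizontal axis in EUC, EPL, SUC and SPL. On the left, circles are edgeR estimates with 95% intervals. On the right are members with 0 to 3 counts over the NC libraries, as count ratios with 95% counting intervals (squares) or as lower bounds (triangles). The dashed line marks the size of 1 required for a call. LAMP3 reached 6.34 in EUC, and the intervals of CD86 crossed 0 in all 4 groups.

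Compared per length, as mean CPM per kilobase of the canonical transcript, CD83 had the highest level of the members in every group. It stood at 4.25 ± 0.910 (SD, n = 3) in NC and at 63.6 ± 13 in EUC and 49.6 ± 2.44 in EPL, and 44.1 ± 7.33 in SUC and 42.6 ± 0.974 in SPL. In NC it was followed by CCL22 at 2.12 and ICOSLG at 1.03, each apart from its neighbours in every library. The other 7 were between 0 and 0.176 and their neighbours in the order overlapped. With BEVs, LAMP3 moved to the second place in all 4 groups, at 14.6 in EUC and 14 in EPL, and 3.87 in SUC and 5.76 in SPL, clear of the genes above and below it. CCL19, CD80, CCL22, CD274 and ICOSLG formed a middle band of 3.28 to 5.56 in the *E. coli* groups and 1.83 to 2.95 in the *S. aureus* groups. Neighbours within this band overlapped, except CD274 and ICOSLG in EUC. CCR7, PDCD1LG2 and CD86 were lowest in each BEV group, between 0.146 and 0.668.

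The comparison of the species asked which members responded differently to *E. coli* BEVs at 1 μg/mL and *S. aureus* BEVs at 10 μg/mL. CCR7, LAMP3 and CD80 were called higher with *E. coli* BEVs, and no member was called lower. Over all tested genes 0.663% were called higher and 0.0233% lower. LAMP3 differed by 1.60 ± 0.10 on the log2 scale (SE, adjusted p = 3.71e-07), which is a 3.03-fold higher level. CCR7 differed by 1.64 ± 0.27 (adjusted p = 0.00139) and CD80 by 1.18 ± 0.20 (adjusted p = 0.00124), or 3.11-fold and 2.26-fold. The 6 *E. coli* libraries lay above the 6 *S. aureus* libraries for these 3 and for CCL22, that is 4 of 10 members, where 3.05% of all tested genes did so. CCR7 passed the filter only through *E. coli* libraries, with 20 to 24 counts in EUC and 15 to 29 in EPL. It had 6 to 9 counts in SUC and 4 to 9 in SPL. A higher CCR7 level with *E. coli* BEVs was therefore partly set in advance, so these shares are not a like background for it. The same limit applies to CCR7 within 1 isolation method.

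Smaller differences passed the adjusted p alone. CCL22 was 0.80 higher with *E. coli* BEVs (adjusted p = 5.78e-05), CD274 0.72 (0.000668) and ICOSLG 0.44 (0.00227), the last 0.40 with its duplicate summed (0.00989). CCL19 (0.88, 95% interval 0.32 to 1.45, adjusted p = 0.0610), CD83 (0.38, 0.16 to 0.59, adjusted p = 0.0356), CD86 (0.58, -0.14 to 1.30, adjusted p = 0.446) and PDCD1LG2 (0.16, -0.51 to 0.84, adjusted p = 0.890) did not. All 10 estimates were above 0, with a median of 0.76. The intervals of CD86 and PDCD1LG2 reached both sides of 0.

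Taken within 1 isolation method, LAMP3 was called for both methods. It was 1.91 higher in EUC than in SUC (95% interval 1.61 to 2.22, adjusted p = 2.05e-06) and 1.28 higher in EPL than in SPL (0.99 to 1.58, adjusted p = 0.000414). It was the only member called in either comparison with edgeR and the filter on low counts, where 0.733% and 0.105% of all tested genes were called higher. The libraries lay apart for 7 members between EUC and SUC (background 9.19%) and for 6 between EPL and SPL (8.19%). CCR7 differed by 1.58 (adjusted p = 0.0257) in the first comparison and 1.70 (adjusted p = 0.0563) in the second, and CD80 by 1.34 (0.0115) and 1.02 (0.122). For CD80 the first value was close to the threshold. It was called without EUC replicate 3 (1.47), EPL replicate 1 (1.34) or SUC replicate 1 (1.80). DESeq2 called CD80 (1.35, adjusted p = 0.00063) and CCL19 (1.34, adjusted p = 0.00953) between EUC and SUC as well as LAMP3, whereas edgeR gave CCL19 1.33 (adjusted p = 0.0570). For 1 member in that comparison, and for 3 between EPL and SPL, DESeq2 gave no adjusted p. With no filter, edgeR called both (1.33 and 1.31), and CD80 also between EPL and SPL (1.01). CD274 was called between EUC and SUC without EUC replicate 3 (1.04) or SUC replicate 1 (1.11), and CCL22 without EUC replicate 1 (1.02).

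**Figure D4:**
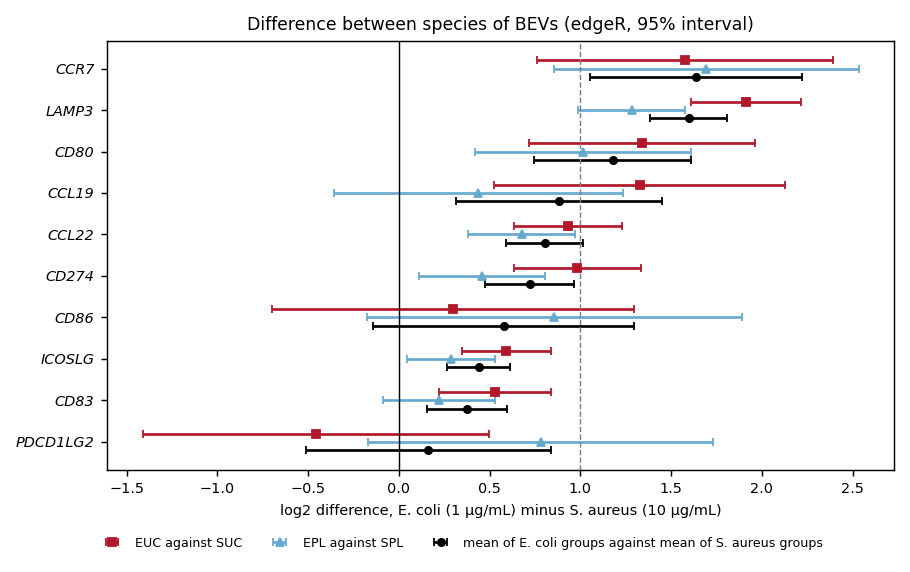
The horizontal axis gives the log2 difference of *E. coli* minus *S. aureus* BEVs with its 95% interval for each member on the vertical axis, for EUC against SUC (squares), EPL against SPL (triangles) and the mean of both methods (circles). The dashed line marks 1. CCR7, LAMP3 and CD80 lie beyond it for the mean of both methods, at 1.64, 1.60 and 1.18, and the other 7 below it.

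The comparison of the isolation methods found no member that differed by the rule for a call. Between EPL and EUC 0% of the tested genes were called, and 3.51% had an unadjusted p of at most 0.05. CD83 was the 1 member among these, with a difference of EPL minus EUC of -0.36 (95% interval -0.66 to -0.050, unadjusted p = 0.0253, adjusted p = 0.947). For LAMP3 the difference of EPL minus EUC was -0.056 (-0.34 to 0.23), for CD80 0.17 (-0.40 to 0.75), for CCR7 -0.091 (-0.80 to 0.62) and for CD274 -0.27 (-0.61 to 0.062). The libraries of EPL and EUC overlapped for all 10 members.

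Between SPL and SUC 0.00581% of the tested genes, which is 1 gene and no member, were called higher, and 5.81% had an unadjusted p of at most 0.05. LAMP3 and ICOSLG were among the latter. LAMP3 was 0.58 higher in SPL (95% interval 0.26 to 0.89, unadjusted p = 0.0012, adjusted p = 0.727) and ICOSLG 0.28 higher (0.028 to 0.52, unadjusted p = 0.0310, adjusted p = 0.814). Both had all 3 SPL libraries above all 3 SUC libraries, as 6.87% of the tested genes did. The widest interval was that of CD86, from -1.53 to 0.62.

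Whether the methods differed in another way for *E. coli* than for *S. aureus* was tested directly, and 0% of the tested genes were called, with 3.83% at an unadjusted p of at most 0.05. LAMP3 (-0.63, 95% interval -1.05 to -0.21, unadjusted p = 0.0057) and CD274 (-0.53, -1.02 to -0.034, unadjusted p = 0.0375) were the members at or under that level, with adjusted p of 1.00 for both. DESeq2 called 3 genes in this comparison, 2 between SPL and SUC and 0 between EPL and EUC.

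Genes that work beside the members were taken from lists chosen for their function, with earlier results of these data known. Of 17 other co-signalling ligands and receptors 15 were tested. The called genes were 5 higher and 1 lower in EUC and in EPL, and 4 higher and 0 lower in SUC and in SPL. Of all tested genes 6.82% to 9.43% were called higher and 3.06% to 5.75% lower in these groups. CD40, the receptor through which T helper cells license antigen-presenting cells, rose from 4.47 ± 0.462 CPM (SD, n = 3) in NC to 145 ± 20.4 in EUC and 130 ± 6.72 in EPL, and 83.9 ± 8.62 in SUC and 104 ± 7.83 in SPL. TNFSF18, the ligand of GITR, had no count in NC and was at least 16.8-fold higher in EUC and 18.9-fold in EPL, and 8.27-fold in SUC and 14.4-fold in SPL. CD276 rose by 1.04 to 1.10 in the 4 groups. CD70 and CD58 were called in 3 of them each, and in the fourth their changes were 0.99 for CD70 in SUC (adjusted p = 7.44e-07) and 0.98 for CD58 in SPL (adjusted p = 2.49e-06), just under the size required. TNFSF14, the ligand LIGHT, fell from 22.4 CPM in NC to 8.47 in EUC and 11.2 in EPL. In SUC its log2 change was -0.73 (adjusted p = 0.00128) and in SPL -0.66 (adjusted p = 0.00247), with every library below those of NC and the size under that required for a call. The median log2 change of the 15 was 0.91 in EUC and 0.76 in EPL, and 0.52 in SUC and 0.60 in SPL. None of the 15 was called between the species by edgeR, with 5 at an unadjusted p of at most 0.05, and 0.663% of all tested genes were called higher and 0.0233% lower.

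Of 17 other genes of dendritic maturation 14 were tested. The called genes were 12 higher in EUC and EPL, 10 in SUC and 11 in SPL, with 1 lower in each group, SOCS2, an inhibitor of cytokine signalling. Of all tested genes 6.82% to 9.43% were called higher and 3.06% to 5.75% lower. IDO1, BIRC3, IL15, EBI3 and SLAMF1 did not reach the filter's level in all 3 NC libraries. For these a higher level with BEVs was partly set in advance, as for TNFSF18 and TNFSF4 among the co-signalling genes. The shares are therefore not a like background. The median log2 change was 3.78 in EUC and 3.61 in EPL, and 3.09 in SUC and 3.26 in SPL. EBI3, a subunit of the cytokines IL-27 and IL-35, stood at 0.645 CPM in NC and at 501, 434, 232 and 298 CPM in EUC, EPL, SUC and SPL. The NF-kappa B subunits NFKB2 and RELB rose by 3.76 to 4.34 and 3.07 to 3.33. FSCN1, the actin-bundling fascin of mature dendritic cells, rose by 1.01 to 1.26 from 557 CPM. IDO1 had no count in NC and was at least 45.6-fold higher in EUC and 20.9-fold higher in SUC. TRAF1, an adaptor of TNF receptors, was the 1 gene of this list called between the species, at 1.32 ± 0.10 higher with *E. coli* BEVs (adjusted p = 9.93e-07). Over all tested genes 0.663% were called higher in that comparison and 0.0233% lower. CCL21, the other CCR7 ligand, and CCL17, the other CCR4 ligand, had at most 19 and 7 counts per group and were not tested, and CD200 had no count in any library.

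The partners of the members on other cells were nearly absent. Of 9 receptors and partners only PDCD1 (PD-1) and ACKR2 were tested. PDCD1 stood at 0.163 CPM in NC and at 1.42 in EUC and 1.55 in EPL, and 0.570 in SUC and 1.14 in SPL, and was called in all but SUC. ACKR2, a scavenging chemokine receptor, fell from 2.72 CPM to 1.23 in EUC, 1.12 in SUC and 1.31 in SPL, and stood at 1.55 in EPL. CD28 had 1 count in all libraries together, and CTLA4, ICOS and CCR4 had at most 9, 4 and 13 counts per group.

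Each member was matched to the 1 gene nearest to it in course, among 14519 genes with a mean of at least 1 CPM. The nearest gene had the smallest root mean square difference of log2 CPM over the 15 libraries, after centring. The closest pair was ICOSLG and ARMC9, at 0.120. CD83 was closest to GCH1 (0.151), which encodes the first enzyme of tetrahydrobiopterin synthesis, and CCL22 to NCK2 (0.156). CD274 was closest to COL4A2 (0.223), LAMP3 to the glutamate transporter SLC1A2 (0.260) and CD86 to GAB1 (0.285). CD80 was closest to IL1A (0.334), the cytokine interleukin-1 alpha, CCL19 to TMEM200A (0.344), CCR7 to LIMS2 (0.356) and PDCD1LG2 to GNG12 (0.412). Beside the SD of the member's own log2 CPM, the match was loosest for CD86 (SD 0.470) and PDCD1LG2 (SD 0.824), so these genes shared its course only in part. It was tighter for LAMP3 (SD 2.33) and CD83 (SD 1.49).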

How the data were processed

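RNA of 15 THP-1 libraries was sequenced from both ends of the fragments. The authors made libraries with the NEB Next Ultra kit, aligned the reads to hg38 with HISAT2 and deposited raw counts of reads for each Ensembl gene, not normalised. The submitters' processing notes name FastQC 0.11.5, HISAT2 2.1.0, StringTie 1.3.3b, DESeq 1.28.0 and featureCounts, with no role given. Neither the annotation release nor the strand setting of the counting is given in the sources used here. That kit does not mark strand unless its directional form is used, so reads of overlapping genes on opposite strands may be shared.

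Libraries were grouped by their titles. Genes were filtered with filterByExpr (minimum count 10), normalised by TMM and fitted with edgeR 4.0.16 (glmQLFit and glmQLFTest, limma 3.58.1, R 4.3.3) in 1 model of all 15 libraries without a replicate block, since the labels tie the replicate numbers to nothing shared and same-numbered libraries did not all deviate together. Benjamini-Hochberg adjustment ran over 17198 tested genes, and the thresholds are those of the study's methods. The common biological coefficient of variation (0.118) was estimated over these genes. CPM are deposited counts over the TMM-normalised library size, except for the filter's level, which used unnormalised totals. Log2 CPM used a prior count of 2. Floors of 3 counts over the NC libraries and 95% exact binomial intervals cover counting error only. Ratios were tested with exact permutation tests (scipy 1.17.1). Positions and lengths come from GENCODE 44. The test was tested on simulated data first.

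All 10 members are named, together with genes of the fixed lists, the closest gene of each member and genes that overlap or duplicate one. The members and the lists were chosen with earlier results of these data known. Alternatives were DESeq2 1.42.0, RLE and upper-quartile normalisation, no filter, other thresholds, a replicate block, fits of only the groups compared and each library left out. The sum of ICOSLG and its duplicate was added after the data had been seen.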

Additional observations from a re-analysis of the deposited data

Results flagged for a closer look

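The responses of 3 members differed between *E. coli* BEVs and *S. aureus* BEVs by a direct test of the difference (edgeR's quasi-likelihood test, mean of EUC and EPL minus mean of SUC and SPL). The log2 difference was 1.64 for CCR7, 1.60 for LAMP3 and 1.18 for CD80, and all 6 *E. coli* libraries lay above all 6 *S. aureus* libraries for each of them. The doses also differed, at 1 and 10 μg/mL, and species and dose cannot be told apart. CCR7 rests on 4 to 29 counts per BEV library. It passed the filter on low counts only through *E. coli* libraries, so the direction of its difference was partly set in advance.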

How the results depend on the processing

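RLE normalisation changed no call of a member, and upper-quartile normalisation changed that of CCL22 in EUC. The number of members called between EUC and SUC was 1, and it was 3 without the filter, 4 without the fold threshold, 3 with DESeq2 and 1 to 3 when 1 library was left out. DESeq2 gave no adjusted p for 1 member there. Between EPL and SPL it was 1, and 2 without the filter and 0 when glmTreat required more than a 2-fold change. For *E. coli* against *S. aureus* it was 3, and 6 without the fold threshold and 1 (LAMP3) with glmTreat. The cause of these shifts was not tested beyond the thresholds themselves. In all 4 comparisons with NC the counts stayed within 1.5 times, between 6 and 9 members over every alternative.

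With 1 library left out, the log2 ratio of CD274 to PDCD1LG2 in BEV libraries against NC ranged from 1.29 to 2.76, with an adjusted p of 0.176 by the exact test without NC replicate 2 or 3. That of CD80 to CD86 ranged from 6.25 to 7.04. Its adjusted p was 0.0879 without NC replicate 2 or 3, where p was 0.0220 by the exact permutation test, the smallest that 12 against 2 libraries can give, so this value says nothing about stability. For CD80 to CD86 between the species the range was 0.48 to 1.01, and the difference passed only without SPL replicate 1 (adjusted p = 0.0462 by the exact test). Uncalled differences that turned sign with 1 library left out were those of EPL against EUC for CCR7 (-0.37 to 0.092), CD80 (-0.020 to 0.42), CD86 (-0.39 to 0.49) and ICOSLG (-0.13 to 0.062), those of SPL against SUC for CCR7 (-0.53 to 0.0021) and CD83 (-0.13 to 0.095), that of CD86 in SPL against NC (-0.40 to 0.13), and the method difference between the species for CCR7 (-0.17 to 0.44).

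The labels number the replicates 1 to 3 in each group. Deviations from the group means correlated at 0.0095 on average between same-numbered libraries (30 pairs, -0.45 to 0.52), and 9 of 15 libraries correlated best with their own number, where 5 would if the numbers carried nothing. This is a hint from the data and not from the design. Not every pair was above 0.1 and the labels tie the numbers to nothing shared, so they were not taken to pair samples. With the replicate number as a block, PDCD1LG2 in SUC was no longer called (log2 change 2.09, adjusted p = 0.0104), which left 7 members there, and the block changed no other call of a member. CCR7, CD86, PDCD1LG2 and CCL19 rested on at most 83 counts in any library.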
